A study of Arabidopsis thaliana with 18 samples.

Results

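Leaves of Arabidopsis thaliana plants that overexpress the sugar transporter gene ERDL4, line OEX1, were compared with wild-type leaves across all genes with enough counts. The comparison rests on 6 RNA-seq libraries of the 18 in the series: 3 of OEX1 and 3 of wild type (WT). Of the 32833 genes in the count table, 18703 had enough counts to be tested. OEX1 is labelled as an ERDL4 overexpressor of the Col-0 ecotype, and WT is Col-0 wild type. All plants were 4 weeks old, untreated, and grown in soil at 21 °C with 10 h of light and 14 h of dark per day, and RNA was taken from 50 mg of leaf material. A further line, OEX2 (3 libraries, same age, tissue and treatment), was set beside OEX1 in places. Discs cut from Col-0 leaves and kept overnight in 1% fructose or 1% mannitol were compared with each other as separate libraries. Discs in 1% glucose shared the fit of that comparison, and all disc libraries entered the alternative fit of all 18 libraries. The labels do not state which promoter drives ERDL4, how many plants went into a library, or whether a line is 1 transformation event.

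ERDL4 belongs to the ERD6-like family of the major facilitator superfamily, whose studied members sit in the vacuolar membrane and export glucose or other sugars from the vacuole into the cytosol. The vacuole holds most of the hexose of a leaf cell. Carriers of the TST type load it with sugar against a proton gradient, and ERD6-like carriers and some SWEET proteins let sugar out again. Cytosolic sugar is sensed by hexokinase and by the kinases SnRK1 and TOR, and high sugar is known to lower photosynthesis genes and to raise starch and anthocyanin synthesis genes in leaves. The question of the study, as its title states it, is how ERDL4 bears on fructose signalling and growth.

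The OEX1 libraries held 23268052 to 26157641 counts and the WT libraries 19429580 to 23806098. Each library is titled a biological replicate, but nothing says that separate plants were used, and a p-value here reflects no more than the spread among the libraries, part of which could be technical. OEX1 replicates 2 and 3 were far more alike than the other OEX1 pairs and the WT pairs: a chi-square over genes gave 2.07 per degree of freedom for them, against 62 and 66.1 for the OEX1 pairs with replicate 1 and 13.8 to 55 for the WT pairs. Replicates 2 and 3 of OEX2 gave 1.7. A value of 1 would be counting noise alone, so the libraries 2 and 3 differed by little more than that. Whether they are repeats of 1 sample is not stated and was not tested. The main fit kept them as separate libraries, and its p-values and n = 3 count them as independent. If they are repeats, those p-values are too small. As an alternative, replicates 2 and 3 were summed to 1 library in OEX1 and likewise in OEX2, and this is what summed means below. OEX1 replicate 1 lay nearer to WT for many of the genes below, and WT replicate 2 lay nearer to OEX1. Bulk leaf RNA cannot tell fewer cells of a type from less RNA per cell.

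ERDL4 itself (AT1G19450; chromosome 1, 6731411 to 6735024 on the minus strand, TAIR10.1) stood at 350.2, 355 and 359 CPM in OEX1, against 124, 111 and 152 CPM in WT. CPM are counts scaled to the library total after TMM normalisation. The 3 OEX1 libraries lay close together and above every WT library, in the direction the labels give (log2 fold change ± its standard error 1.46 ± 0.13, n = 3 each; edgeR quasi-likelihood test, Benjamini-Hochberg adjusted p = 0.000155). Against OEX2 the levels were 350.2, 355 and 359 CPM in OEX1, against 604, 578 and 568 CPM in OEX2, and that difference did not pass the threshold of 0.05 (log2 fold change -0.72 ± 0.13, edgeR adjusted p = 0.0782). Its nearest relative ERDL6, also a vacuolar exporter, is a close copy whose reads may be shared with ERDL4, so its level is uncertain.

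The change in OEX1 was broad. At an edgeR adjusted p under 0.05, 4018 genes rose (21.5% of those tested) and 4178 fell (22.3%), 43.8% in all, and the median log2 fold change over all genes was 0.008 with quartiles of -0.441 and 0.376. All 3 OEX1 libraries lay above all 3 WT libraries in 5379 genes (28.8%) and below them in 5127 (27.4%). A change of at least 2-fold was reached by 1440 of the higher and 1803 of the lower genes, 7.7% and 9.64% of those tested. With replicates 2 and 3 of both lines summed, 2485 genes were called higher and 2625 lower. With scaling to library size only, the median gene shifted by 0.216 and the split became 6128 higher and 2796 lower; no gene called with TMM scaling changed sign under it.

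**Figure D1:**
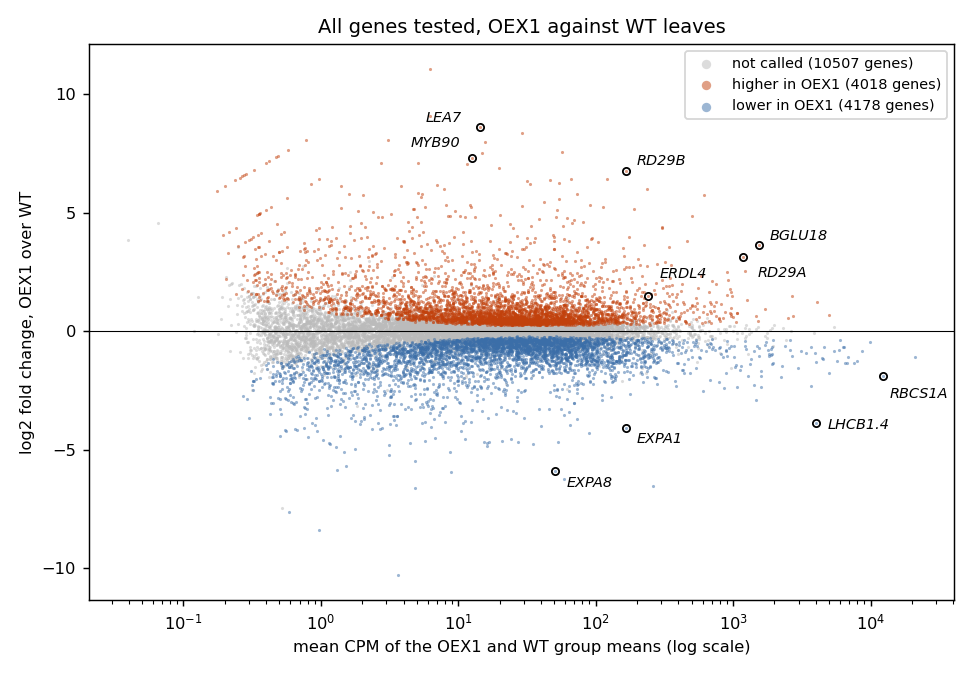
Log2 fold change of OEX1 over WT (y axis) against the mean of the OEX1 and WT levels in CPM (x axis, log scale) for the 18703 genes tested. Each point is a gene, coloured by its call, with 10 named genes circled. Genes of high level such as RBCS1A (log2 fold change -1.90) and LHCB1.4 (-3.88) lie below 0, and RD29A (3.14) and BGLU18 (3.61) above.

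The 12 genes with the highest fold among named genes of at least 5 CPM were HIPP22, LEA7, TSPO, SAG29, MYB90, PPCK2, HSFA6A, UGT79B1, RD29B, DFR, LEA4-5 and DAA1. HIPP22, a metal-binding protein gene, held 951 counts over the OEX1 libraries and 1 count over the WT libraries, a ratio of CPM of 728 with an exact 95% interval, for counting error only, of 130.4 to 28800. LEA7, a late embryogenesis abundant protein gene, held 0.942, 41.5 and 43.8 CPM in OEX1, against 0.103, 0.0526 and 0.0493 CPM in WT (log2 fold change 8.60 ± 1.69, edgeR adjusted p = 0.00398). OEX1 replicate 1 thus stood far below the other OEX1 libraries while still above every WT library, and with limma-voom LEA7 was not called (adjusted p = 0.311). SAG29, also known as the sugar carrier SWEET15, stood at 10.9, 167 and 164 CPM in OEX1, against 0.564, 1.105 and 0.148 CPM in WT (log2 fold change 7.56 ± 1.14, edgeR adjusted p = 0.00125; limma-voom adjusted p = 0.0551). TSPO, a membrane protein gene of the abscisic acid response, held 9.19, 42.5 and 41.7 CPM in OEX1, against 0, 0.368 and 0 CPM in WT (log2 fold change 7.96 ± 1.03, edgeR adjusted p = 0.000677). WT replicate 2 held the only WT counts of TSPO, and without it the fitted log2 value was 12.40, which depends on the prior count. PPCK2, a kinase of phosphoenolpyruvate carboxylase known to respond to phosphate shortage, was even across OEX1 at 10.1, 10.1 and 10.2 CPM in OEX1, against 0, 0.211 and 0 CPM in WT (log2 fold change 7.10 ± 0.79, edgeR adjusted p = 0.000364; 10.78 without WT replicate 2, which again held the only WT counts).

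The 12 lowest genes were BZIP61, EXPA8, ESE3, DIN10, XTH6, KCS12, GASA6, PDF1.2B, EXPB1, EXPA1, FAP3 and LHCB1.4. EXPA8, EXPB1 and EXPA1 encode expansins, which loosen cell walls, and XTH6 a xyloglucan-modifying wall enzyme. GASA6, a gibberellin-regulated gene, stood at 5.58, 2.75 and 3.62 CPM in OEX1, against 75.6, 82.0 and 147 CPM in WT (log2 fold change -4.67 ± 0.39, edgeR adjusted p = 0.000183). KCS12, an enzyme of fatty acid elongation, held 2.00, 0.882 and 0.832 CPM in OEX1, against 47.8, 17.3 and 31.8 CPM in WT (log2 fold change -4.70 ± 0.44, edgeR adjusted p = 0.000231). In both, every OEX1 library lay below every WT library. By difference in CPM, which favours abundant transcripts, GLDP1, BGLU18, RD22, PRXR1 and RD29A rose most and LHCB1.3, RBCS1A, LHCB1.4, LHCB3 and LHCB5 fell most. BGLU18, a glucosidase that releases abscisic acid from its glucose ester, stood at 1384, 3594 and 3584 CPM in OEX1, against 226, 312 and 161 CPM in WT (log2 fold change 3.61 ± 0.40, edgeR adjusted p = 0.000332). RD22 rose by 1.49 ± 0.20 and PRXR1, a peroxidase gene, by 0.68 ± 0.14 (edgeR adjusted p = 0.000512 and 0.00342); neither was called when all 18 libraries shared 1 fit (adjusted p = 0.117 and 0.199).

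Vacuolar sugar carriers moved in both directions. Of 16 tested, 6 rose and 6 fell, with a median of 0.06 against 0.008 over all genes. TST2, a loader of sugars into the vacuole, stood at 135, 225 and 219 CPM in OEX1, against 58.4, 79.3 and 61.9 CPM in WT (log2 fold change 1.54 ± 0.24, edgeR adjusted p = 0.000976). The OEX1 libraries lay above all WT libraries, with replicate 1 lowest. Its relative TST1 fell instead, with 40.4, 30.8 and 30.1 CPM in OEX1, against 59.5, 44.4 and 69.7 CPM in WT (log2 fold change -0.78 ± 0.18, edgeR adjusted p = 0.00577). SUC4, the sucrose exporter of the vacuole, rose to 4.83, 5.25 and 4.45 CPM in OEX1, against 1.95, 3.00 and 2.07 CPM in WT (log2 fold change 1.05 ± 0.20, edgeR adjusted p = 0.00222).

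SWEET17, which carries fructose across the vacuolar membrane, held 62.9, 93.7 and 89.5 CPM in OEX1, against 58.1, 55.4 and 60.4 CPM in WT (log2 fold change 0.50 ± 0.15, edgeR adjusted p = 0.0218). OEX1 replicate 1 stood just above the WT range, and the call was lost with replicates 2 and 3 of both lines summed or with OEX1 replicate 2 or 3 left out (edgeR adjusted p up to 0.119). SWEET2, which retains glucose in the vacuole, fell to 5.14, 3.82 and 3.04 CPM in OEX1, against 20.4, 13.5 and 24.3 CPM in WT (log2 fold change -2.28 ± 0.33, edgeR adjusted p = 0.000785). SWEET16 held 1.22, 1.43 and 1.04 CPM in OEX1, against 2.62, 1.58 and 2.07 CPM in WT and did not pass (log2 fold change -0.76 ± 0.30, edgeR adjusted p = 0.0609), though without WT replicate 2 it was called (log2 fold change -0.90, edgeR adjusted p = 0.0378). The vacuolar glucose carrier VGT1 did not pass either (log2 fold change -0.17 ± 0.10, edgeR adjusted p = 0.183), whose sign turned with scaling to library size (0.04).

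Among the ERD6-like genes named from the vacuolar carrier list, ERDL4 and ESL1 rose while ERD6, SFP1, SFP2 and ERDL6 fell. The rest of the family is not described here. ESL1, a carrier gene known to respond to drought, held 27.7, 46.1 and 50.9 CPM in OEX1, against 13.9, 20.6 and 15.2 CPM in WT (log2 fold change 1.33 ± 0.23, edgeR adjusted p = 0.00184). ERD6, the gene that names the family, stood at 53.9, 21.7 and 23.8 CPM in OEX1, against 177, 118 and 147 CPM in WT (log2 fold change -2.15 ± 0.35, edgeR adjusted p = 0.00143), with OEX1 replicate 1 highest among the OEX1 libraries but below all WT libraries. SFP1 changed by -0.41 ± 0.10 and SFP2 by -0.77 ± 0.18 (edgeR adjusted p = 0.00723 and 0.00579). In 1 fit of all 18 libraries neither was called (adjusted p = 0.113 and 0.122), and SFP1 was also lost with scaling to library size only (0.193) and with replicates 2 and 3 of both lines summed (0.0532). ERDL6 held 34.9, 43.9 and 40.0 CPM in OEX1, against 66.5, 50.8 and 62.2 CPM in WT (log2 fold change -0.59 ± 0.21, edgeR adjusted p = 0.0415). The groups did not overlap, yet 8 of 17 alternative settings lost the call, with adjusted p = 0.0843 with replicates 2 and 3 of both lines summed and up to 0.131, without WT replicate 1. Leaving out any 1 OEX1 library or WT replicate 3 also lost it.

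**Figure D2:**
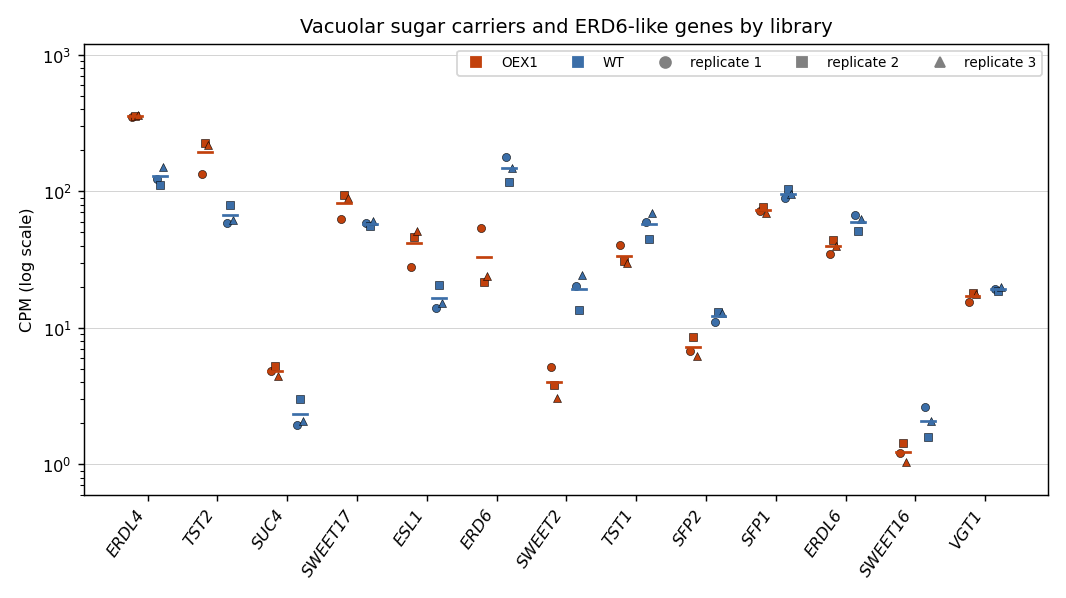
Level in CPM (y axis, log scale) of 13 vacuolar sugar carrier and ERD6-like genes (x axis) in each OEX1 and WT library. Points are libraries, marked by replicate, and bars are group means. ERDL4 shows 350 to 359 CPM in OEX1 and 111 to 152 CPM in WT, and ERD6 and SWEET2 show the reverse order.

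Carriers of the plasma membrane rose more often than they fell: 8 of 16 rose and 2 fell (median 0.51). SWEET12, which releases sucrose for loading into the phloem, stood at 37.8, 74.3 and 71.2 CPM in OEX1, against 9.34, 11.1 and 6.21 CPM in WT (log2 fold change 2.78 ± 0.36, edgeR adjusted p = 0.000587). SWEET4, a hexose carrier, rose to 10.8, 32.3 and 30.9 CPM in OEX1, against 2.77, 2.53 and 1.73 CPM in WT (log2 fold change 3.40 ± 0.48, edgeR adjusted p = 0.000889). INT2, an inositol importer, rose by 5.79 ± 0.71 and STP7, a pentose carrier, by 1.42 ± 0.18 (edgeR adjusted p = 0.000494 and 0.000419). In SWEET12, SWEET4 and INT2 OEX1 replicate 1 was the lowest OEX1 library, and no OEX1 library overlapped WT. SUC2, the phloem-loading sucrose symporter of companion cells, held 366, 385 and 375 CPM in OEX1, against 243, 264 and 280.1 CPM in WT (log2 fold change 0.52 ± 0.11, edgeR adjusted p = 0.00335). STP1, a hexose importer whose gene is repressed by sugar, fell to 47.1, 18.5 and 19.97 CPM in OEX1, against 124, 60.1 and 87.4 CPM in WT (log2 fold change -1.67 ± 0.45, edgeR adjusted p = 0.0163). STP4, a monosaccharide importer, overlapped WT with 56.9, 40.4 and 39.8 CPM in OEX1, against 88.0, 56.2 and 61.6 CPM in WT (log2 fold change -0.59 ± 0.19, edgeR adjusted p = 0.0273). Both STP calls were lost with replicates 2 and 3 of both lines summed (adjusted p = 0.0753 for STP1 and 0.137 for STP4), without OEX1 replicate 2 or 3 and without WT replicate 1. Without WT replicate 1 the log2 fold change of STP4 was -0.34.

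Enzymes of sucrose and hexose use were split, with 13 of 32 higher and 9 lower (median 0.24). Summing replicates 2 and 3 of both lines left 8 higher and 3 lower, and leaving out OEX1 replicate 2 or 3 or WT replicate 1 or 3 left 9 to 11 higher and 3 or 4 lower. SPS1F, the main leaf sucrose phosphate synthase, stood at 454, 650.2 and 647 CPM in OEX1, against 177, 242 and 181 CPM in WT (log2 fold change 1.55 ± 0.17, edgeR adjusted p = 0.000297). SPS2F rose by 2.16 ± 0.25, UGP1, which makes UDP-glucose, by 0.94 ± 0.12 and the sucrose synthase SUS1 by 0.84 ± 0.14 (edgeR adjusted p = 0.000364, 0.000385 and 0.0011). Hexokinase 2 (HXK2) held 91.3, 128 and 127 CPM in OEX1, against 39.3, 46.6 and 39.6 CPM in WT (log2 fold change 1.46 ± 0.14, edgeR adjusted p = 0.000207), and every OEX1 library lay above every WT library. Hexokinase 1 (HXK1), the glucose sensor, held 72.8, 81.5 and 76.1 CPM in OEX1, against 63.0, 59.2 and 58.6 CPM in WT (log2 fold change 0.35 ± 0.09, edgeR adjusted p = 0.0103), and was not called with replicates 2 and 3 summed (adjusted p = 0.076) or without OEX1 replicate 2. FINS1, a cytosolic fructose bisphosphatase also described as a fructose sensor, fell to 224, 179 and 170.2 CPM in OEX1, against 351, 272 and 333 CPM in WT (log2 fold change -0.74 ± 0.14, edgeR adjusted p = 0.00214). CINV1, the cytosolic invertase, fell by 1.44 on the log2 scale (edgeR adjusted p = 0.00145). VINV2, a vacuolar invertase, was uneven across OEX1, with 128, 294 and 293 CPM in OEX1, against 133, 110.2 and 163 CPM in WT, and did not pass (log2 fold change 0.82 ± 0.36, edgeR adjusted p = 0.0988). Without OEX1 replicate 1 it was called (log2 fold change 1.12, edgeR adjusted p = 0.0104), as it was with DESeq2 (adjusted p = 0.0391). ANAC089, a NAC factor tied to fructose signalling in seedlings, rose to 42.7, 58.8 and 59.4 CPM in OEX1, against 12.2, 18.3 and 10.2 CPM in WT (log2 fold change 1.99 ± 0.22, edgeR adjusted p = 0.000289).

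Starch genes rose in part. In starch synthesis 7 of 19 rose and 2 fell (median 0.15). APL3, a large subunit of ADP-glucose pyrophosphorylase, stood at 308, 386 and 399 CPM in OEX1, against 69.6, 91.4 and 56.3 CPM in WT (log2 fold change 2.33 ± 0.18, edgeR adjusted p = 0.000139). GBSS1, the granule-bound starch synthase that makes amylose, held 369, 556 and 553 CPM in OEX1, against 57.5, 100 and 50.6 CPM in WT (log2 fold change 2.83 ± 0.27, edgeR adjusted p = 0.00021). APL4, another large subunit, was lowest in OEX1 replicate 1, with 30.1, 125 and 119 CPM in OEX1, against 7.75, 8.05 and 9.22 CPM in WT (log2 fold change 3.45 ± 0.48, edgeR adjusted p = 0.00085). Against these, the leaf subunit gene APL1 fell by 0.52 and TPT, the triose phosphate exporter of the chloroplast, by 0.74 on the log2 scale (edgeR adjusted p = 0.00391 and 0.00139); TPT was not called when all 18 libraries shared 1 fit (adjusted p = 0.223). Of 22 starch degradation genes 12 rose and 1 fell (median 0.40), and 7 rose and none fell with replicates 2 and 3 summed or without OEX1 replicate 2 or 3 or WT replicate 1. BAM1, a beta-amylase active under stress, rose to 218, 352 and 359.8 CPM in OEX1, against 90.1, 107 and 80.7 CPM in WT (log2 fold change 1.75 ± 0.22, edgeR adjusted p = 0.000385). MEX1, the maltose exporter of the chloroplast, stood at 53.2, 75.7 and 74.8 CPM in OEX1, against 21.1, 29.9 and 21.4 CPM in WT (log2 fold change 1.49 ± 0.18, edgeR adjusted p = 0.000364).

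Trehalose metabolism was divided evenly, with 8 of 17 higher and 8 lower, or 3 and 6 with replicates 2 and 3 of both lines summed. Without OEX1 replicate 2, WT replicate 1 or WT replicate 3, 5 were higher. TPS5 rose to 139.7, 185 and 187 CPM in OEX1, against 53.3, 62.5 and 44.5 CPM in WT (log2 fold change 1.67 ± 0.18, edgeR adjusted p = 0.000255), while TPS11, of the same class and induced by starvation, fell to 24.9, 19.5 and 17.5 CPM in OEX1, against 66.9, 53.2 and 67.2 CPM in WT (log2 fold change -1.60 ± 0.19, edgeR adjusted p = 0.000374). Neither gene's groups overlapped. Genes known to rise when sugar is short were also mixed, with 6 of 22 higher and 9 lower (median -0.46). The higher share, 27.3%, was near the 21.5% over all genes, and the lower share was 40.9% beside 22.3%. With replicates 2 and 3 of both lines summed 2 were higher and 8 lower, and 3 and 8 without OEX1 replicate 2. DIN10, a dark-induced raffinose synthase relative, stood at 2.04, 0.367 and 0.79 CPM in OEX1, against 46.9, 20 and 26.6 CPM in WT (log2 fold change -4.87 ± 0.53, edgeR adjusted p = 0.000364). AKINBETA1, a subunit gene of SnRK1, fell by 1.60 on the log2 scale (edgeR adjusted p = 0.00078), whereas BCAT2, which breaks down branched-chain amino acids, rose by 2.95 ± 0.41 (edgeR adjusted p = 0.000726).

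Nuclear genes of the photosynthetic apparatus fell together. All 46 tested genes of the antennae and photosystems were called lower (median -1.07, range -3.88 to -0.38), but 35 with replicates 2 and 3 of both lines summed and 22 when all 18 libraries shared 1 fit. These genes took 11.1% ± 1.43 of all counts in OEX1 and 20.5% ± 2.64 in WT (SD, n = 3 each; exact two-sided permutation test, p = 0.1, the smallest that 3 against 3 allows). LHCB1.3, a main antenna protein of photosystem II, stood at 15100, 12190 and 12990 CPM in OEX1, against 28760, 22840 and 33870 CPM in WT (log2 fold change -1.09 ± 0.19, edgeR adjusted p = 0.00156). LHCB1.4 fell to 939, 287 and 309 CPM in OEX1, against 7956, 4695 and 10010 CPM in WT (log2 fold change -3.88 ± 0.54, edgeR adjusted p = 0.000777). The LHCB1 genes are near-identical copies, so how their reads were divided makes single members uncertain. LHCB1.5, also on the list, was at 0 counts in OEX1 and WT and was not tested. LHCB5, a minor antenna protein, held 5754, 4130 and 4213 CPM in OEX1, against 12010, 8806 and 12680 CPM in WT (log2 fold change -1.25 ± 0.19, edgeR adjusted p = 0.000801). LHCB1.3 and LHCB3 were not called when all 18 libraries shared 1 fit (adjusted p = 0.146 and 0.072). Among photosystem I subunits, PSAH2 fell to 647, 464 and 472 CPM in OEX1, against 1609, 1313 and 1671 CPM in WT (log2 fold change -1.54 ± 0.16, edgeR adjusted p = 0.000231), and PSAN and PSAD2 changed by -1.71 ± 0.18 and -1.37 ± 0.15 (edgeR adjusted p = 0.000264 and 0.000275). In PSAH2, PSAN and PSAD2, WT replicate 2 was the lowest WT library and still lay above all of OEX1.

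Chlorophyll synthesis followed the same direction, with all 11 tested genes lower (median -1.48). PORB, which reduces protochlorophyllide in light, stood at 299, 249.6 and 261 CPM in OEX1, against 1578, 870.1 and 1852 CPM in WT (log2 fold change -2.41 ± 0.24, edgeR adjusted p = 0.000219). GUN5, the large subunit of magnesium chelatase, held 1310, 1133 and 1140 CPM in OEX1, against 3572, 2493 and 3913 CPM in WT (log2 fold change -1.48 ± 0.18, edgeR adjusted p = 0.000374). CHLI1 changed by -1.73 ± 0.19 and CHLM by -1.68 ± 0.18 (edgeR adjusted p = 0.000265 and 0.000273). All 11 also fell with replicates 2 and 3 summed.

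In carbon fixation 13 of 16 fell and none rose (median -0.69), and 8 fell with replicates 2 and 3 summed and 7 when all 18 libraries shared 1 fit. The list took 2.99% ± 0.358 of counts in OEX1 and 5.66% ± 0.897 in WT (SD, n = 3 each; exact two-sided permutation test, p = 0.1). RBCS1A, a Rubisco small subunit gene, stood at 6808, 4311 and 4407 CPM in OEX1, against 21970, 13410 and 22430 CPM in WT (log2 fold change -1.90 ± 0.25, edgeR adjusted p = 0.000494). CA2, a carbonic anhydrase, fell to 324, 279 and 279 CPM in OEX1, against 1449, 833 and 1595 CPM in WT (log2 fold change -2.13 ± 0.23, edgeR adjusted p = 0.000242). Photorespiration had 3 of 11 higher and 3 lower, or 6 and 2 with scaling to library size only. The first shares, 27.3% each, were near the 21.5% and 22.3% over all genes. GLDP1, the P protein of glycine decarboxylase, rose to 4545, 6352 and 6229 CPM in OEX1, against 2331, 2770 and 2268 CPM in WT (log2 fold change 1.22 ± 0.17, edgeR adjusted p = 0.000539), and its copy GLDP2 rose by 0.81 ± 0.12 (edgeR adjusted p = 0.000798). GLDT, the T protein of the same complex, fell to 621, 493 and 509 CPM in OEX1, against 1240, 907 and 1313 CPM in WT (log2 fold change -1.09 ± 0.16, edgeR adjusted p = 0.000695).

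**Figure D3:**
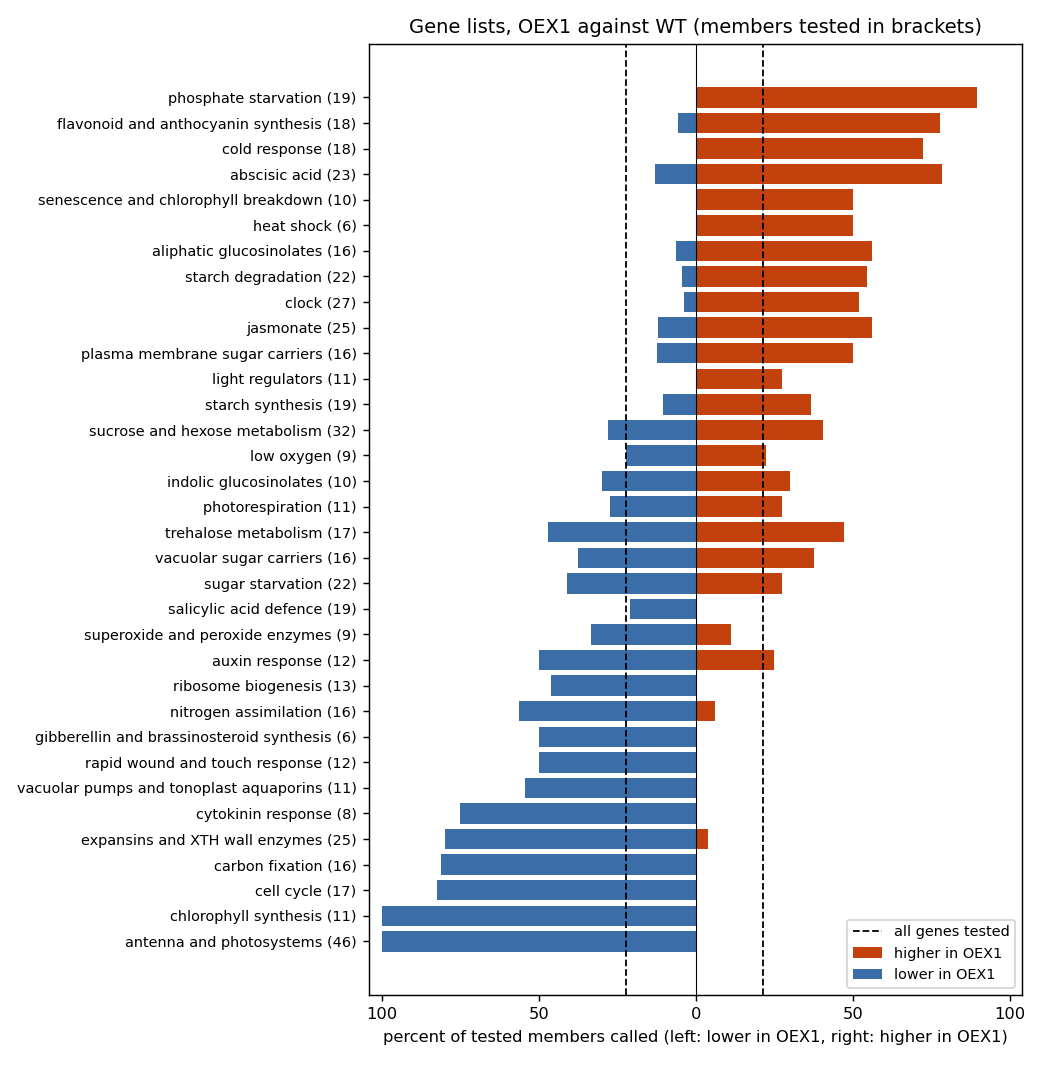
Share of tested members of each of 34 gene lists called higher (right, orange) or lower (left, blue) in OEX1 against WT, in percent, with the number tested in brackets. Dashed lines mark the share over all genes, 21.5% higher and 22.3% lower. Phosphate starvation reached 89.5% higher, and the antenna and chlorophyll synthesis lists 100% lower.

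Most lists related to growth held more lower than higher genes. Of 25 expansin and XTH genes 20 fell and 1 rose (median -1.77; 23 and 2 without OEX1 replicate 1). EXPA1 stood at 22.1, 17.01 and 15.6 CPM in OEX1, against 319, 216 and 402 CPM in WT (log2 fold change -4.10 ± 0.24, edgeR adjusted p = 0.000126). EXPA8 held 3.93, 0.588 and 0.541 CPM in OEX1, against 80.7, 76.8 and 143 CPM in WT (log2 fold change -5.89 ± 0.66, edgeR adjusted p = 0.000432). XTH4 fell to 6.67, 6.98 and 7.90 CPM in OEX1, against 67.7, 42.9 and 102 CPM in WT (log2 fold change -3.30 ± 0.31, edgeR adjusted p = 0.000219). No OEX1 library of these genes came near the WT range. XTH5 was the exception that rose, by 0.63 ± 0.15 (edgeR adjusted p = 0.00709). Of 17 cell cycle genes 14 fell and none rose (median -1.15). With replicates 2 and 3 of both lines summed or without WT replicate 3, 10 fell, and 11 with scaling to library size only. MCM7, a subunit of the replication helicase, stood at 3.38, 2.35 and 3.00 CPM in OEX1, against 9.44, 7.47 and 12.2 CPM in WT (log2 fold change -1.74 ± 0.22, edgeR adjusted p = 0.000411). MCM4 and MCM2 changed by -1.56 ± 0.22 and -1.42 ± 0.20, and the D-type cyclin CYCD3;2 by -1.15 ± 0.15 (edgeR adjusted p = 0.000574, 0.00059 and 0.00043).

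Type-A response regulators, the early targets of cytokinin that damp its signal, were low in OEX1: 6 of 8 genes of the cytokinin list fell and none rose (median -2.10). ARR5 stood at 2.12, 2.17 and 2.58 CPM in OEX1, against 10.8, 8.37 and 13.5 CPM in WT (log2 fold change -2.25 ± 0.20, edgeR adjusted p = 0.000155). ARR6 held 1.49, 1.62 and 1.21 CPM in OEX1, against 15.8, 7.95 and 17.56 CPM in WT (log2 fold change -3.25 ± 0.29, edgeR adjusted p = 0.00016). ARR7 and ARR16 changed by -1.96 ± 0.18 and -2.39 ± 0.40 (edgeR adjusted p = 0.00018 and 0.00143). The OEX1 libraries of all 4 lay below WT, with WT replicate 2 the lowest of WT. In the auxin list 6 of 12 fell and 3 rose (50% and 25%, beside 22.3% and 21.5% over all genes). IAA7 and IAA19, repressors of auxin response, changed by -1.28 ± 0.16 and -1.59 ± 0.23 (edgeR adjusted p = 0.000422 and 0.000603). With replicates 2 and 3 summed, 3 fell and none rose, and without OEX1 replicate 2 or 3 or WT replicate 1 or 3, 3 or 4 fell and 1 rose. BR6OX2, the last enzyme of brassinosteroid synthesis, fell to 5.93, 3.27 and 3.54 CPM in OEX1, against 18.1, 20 and 27.1 CPM in WT (log2 fold change -2.36 ± 0.24, edgeR adjusted p = 0.000228), 1 of 3 genes that fell among 6 of gibberellin and brassinosteroid synthesis.

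Of 13 ribosome biogenesis genes 6 fell and none rose (median -0.31), or 2 with scaling to library size only. In OEX2 against WT the same list had 4 higher and none lower (median 0.17), though no member was called between the lines. With replicates 2 and 3 summed, or without any 1 OEX1 library or WT replicate 1 or 3, 3 fell. FIB2, the nucleolar protein fibrillarin, held 4.67, 8.48 and 6.32 CPM in OEX1, against 15.7, 11.5 and 18.8 CPM in WT (log2 fold change -1.24 ± 0.25, edgeR adjusted p = 0.00353). GAR1 changed by -0.57 ± 0.13 (edgeR adjusted p = 0.00624; 0.0545 with library size only). Nitrogen assimilation had 9 of 16 lower and 1 higher (median -0.63). NIA1, a nitrate reductase, stood at 28.2, 28.0 and 28.3 CPM in OEX1, against 102, 67.5 and 97.8 CPM in WT (log2 fold change -1.66 ± 0.15, edgeR adjusted p = 0.000155), while the glutamine synthetase GLN1;3 rose to 44.2, 65.1 and 60.9 CPM in OEX1, against 18.4, 27.2 and 21.0 CPM in WT (log2 fold change 1.36 ± 0.20, edgeR adjusted p = 0.000689).

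Phosphate starvation genes rose with the highest share of any list. Of 19 tested, 17 rose and none fell (median 2.61), and 16 rose with replicates 2 and 3 of both lines summed. When phosphate is short, plants replace phospholipids with galactolipids and sulfolipids, and release phosphate with phosphatases, under the control of PHR1, which binds the P1BS element. MGD2, a galactolipid synthase, stood at 41.7, 42.0 and 43.1 CPM in OEX1, against 6.46, 10.4 and 7.003 CPM in WT (log2 fold change 2.41 ± 0.19, edgeR adjusted p = 0.000136). SQD2, the sulfolipid synthase, held 527, 596 and 585 CPM in OEX1, against 106, 151 and 104.9 CPM in WT (log2 fold change 2.24 ± 0.20, edgeR adjusted p = 0.000155). SQD1 rose by 1.56 ± 0.15 and PLDP2, a phospholipase D that breaks down phospholipids, by 2.61 ± 0.25 (edgeR adjusted p = 0.00018 and 0.000212). The OEX1 libraries, replicate 1 included, were nearly equal for these genes, and WT replicate 2 was the highest WT library. Over the list, the median level against the WT mean was 2.75, 2.92 and 2.69 on the log2 scale in OEX1, against -0.24, 0.79 and -0.48 in WT.

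Promoters of the list were searched for P1BS, GNATATNC, which reads the same on both strands. The 250 bases before the annotated start held it in 6 of 19 genes (31.6%), against 5.45% of 18623 promoters of tested genes. It stood in 6.3% of genes called higher and 5.2% of genes called lower, and at 2-fold or more in 8.14% and 6.26%. The share of the list describes its tested members whatever their change in OEX1. SPX3, a phosphate sensor protein gene, and GDPD1, a glycerophosphodiester phosphodiesterase gene, held most matches and are shown, with P1BS in capitals. They were chosen for these matches after values were known, as examples of the element beside a gene that rose. GDPD1 held 178, 168 and 173 CPM in OEX1, against 5.44, 24.4 and 5.87 CPM in WT (log2 fold change 3.86 ± 0.58, edgeR adjusted p = 0.00123), and SPX3 held 2.83, 4.11 and 4.16 CPM in OEX1, against 0.0513, 0.579 and 0.0986 CPM in WT (log2 fold change 3.92 ± 0.64, edgeR adjusted p = 0.00123). Coordinates are TAIR10.1 and sequences run 5′ to 3′ on the gene's strand.
SPX3 promoter (chr2:18606160-18606409, plus strand): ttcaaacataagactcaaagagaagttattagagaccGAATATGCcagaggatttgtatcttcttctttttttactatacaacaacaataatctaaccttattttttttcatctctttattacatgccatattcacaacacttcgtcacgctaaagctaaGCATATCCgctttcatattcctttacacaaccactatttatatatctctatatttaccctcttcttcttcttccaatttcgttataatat
GDPD1 promoter (chr3:350011-350260, minus strand): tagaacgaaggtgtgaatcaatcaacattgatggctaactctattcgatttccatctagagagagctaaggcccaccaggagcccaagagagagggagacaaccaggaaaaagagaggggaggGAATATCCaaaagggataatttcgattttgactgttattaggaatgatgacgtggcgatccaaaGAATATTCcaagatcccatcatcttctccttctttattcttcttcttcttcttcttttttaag
A match describes letters in this window and not binding, and most promoters of the list held none.

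Abscisic acid genes formed the next large group. Abscisic acid accumulates under water shortage; PP2C phosphatases switch its signal off, and ABF factors bind the ABRE element of target genes. Of 23 tested, 18 rose and 3 fell (median 2.18), and 18 rose with replicates 2 and 3 summed. RD29B, a classical target gene, stood at 73.7, 445 and 472 CPM in OEX1, against 4.05, 4.16 and 0.888 CPM in WT (log2 fold change 6.77 ± 0.85, edgeR adjusted p = 0.000612). PP2CA, a PP2C phosphatase, held 406, 729 and 729 CPM in OEX1, against 72.5, 122 and 73.2 CPM in WT (log2 fold change 2.80 ± 0.28, edgeR adjusted p = 0.000228). HAB1, another, held 126, 228 and 231 CPM in OEX1, against 19.3, 37.6 and 22.2 CPM in WT (log2 fold change 2.88 ± 0.31, edgeR adjusted p = 0.000329). In these 3 genes OEX1 replicate 1 lay between WT and the other OEX1 libraries. The factor genes ABF2 and ABF3 rose by 2.24 ± 0.21 and 2.18 ± 0.23 (edgeR adjusted p = 0.000203 and 0.000265). Against the majority, the receptor genes PYL4 and PYL5 fell, PYL4 to 4.59, 1.54 and 3.20 CPM in OEX1, against 36.3, 9.79 and 26.9 CPM in WT (log2 fold change -2.97 ± 0.51, edgeR adjusted p = 0.00193) and PYL5 by 2.45 on the log2 scale (edgeR adjusted p = 0.00302).

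Cold response genes rose in 13 of 18 cases with none lower (median 1.69), and 13 rose with replicates 2 and 3 summed. RD29A stood at 1256, 2520 and 2603 CPM in OEX1, against 138, 428 and 158 CPM in WT (log2 fold change 3.14 ± 0.46, edgeR adjusted p = 0.00096). LTI30, a dehydrin that protects membranes, held 56.0, 154 and 148 CPM in OEX1, against 7.13, 13.6 and 4.98 CPM in WT (log2 fold change 3.81 ± 0.48, edgeR adjusted p = 0.000603). COR413IM1 and COR413-PM1, membrane proteins of cold acclimation, rose by 1.74 ± 0.23 and 1.399 ± 0.19 (edgeR adjusted p = 0.000494 and 0.000539). OEX1 replicate 1 was lowest and WT replicate 2 highest in RD29A, and the groups stayed apart. Of 11 listed heat shock genes 6 had enough counts to be tested. Of these 3 rose, or 2 with replicates 2 and 3 summed or without WT replicate 2. HSP70-4 held 49.1, 174 and 179 CPM in OEX1, against 12.1, 17.9 and 9.32 CPM in WT (log2 fold change 3.35 ± 0.48, edgeR adjusted p = 0.000925). HSFA2 lost its call in 9 of 17 alternative settings (edgeR adjusted p = 0.155 with replicates 2 and 3 summed).

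The ABRE was searched as ACGTGNC and the DRE, the site of CBF and DREB factors, as CCGAC, both on either strand; the 2 can overlap. ABRE stood in the 250 bases before the start in 9.74% of tested genes, 13.3% of genes called higher, 17.3% of those higher by at least 2-fold and 8.64% of genes called lower. In the abscisic acid list it stood in 8 of 23 (34.8%). DRE stood in 13.2% of all, 14.9% of higher, 11.9% of lower and 33.3% of cold response promoters. Some other lists held DRE more often, with 41.7% in auxin response and 36.4% in vacuolar pumps and tonoplast aquaporins. It was also in 36.4% of chlorophyll synthesis promoters, whose tested genes all fell. ABRE was in 44.4% of clock promoters and in 30.4% of the antenna promoters, whose genes fell. Shown, among genes called higher, are the abscisic acid promoters with most ABRE matches and the cold response promoters with most DRE matches. ABRE and DRE are in capitals.
PP2CA promoter (chr3:3585851-3586100, minus strand): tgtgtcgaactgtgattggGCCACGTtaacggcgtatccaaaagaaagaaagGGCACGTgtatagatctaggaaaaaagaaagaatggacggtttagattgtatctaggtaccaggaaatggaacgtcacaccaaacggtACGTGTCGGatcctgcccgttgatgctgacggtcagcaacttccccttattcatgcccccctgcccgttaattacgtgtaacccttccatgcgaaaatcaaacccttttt
RD29B promoter (chr5:21236771-21237020, plus strand): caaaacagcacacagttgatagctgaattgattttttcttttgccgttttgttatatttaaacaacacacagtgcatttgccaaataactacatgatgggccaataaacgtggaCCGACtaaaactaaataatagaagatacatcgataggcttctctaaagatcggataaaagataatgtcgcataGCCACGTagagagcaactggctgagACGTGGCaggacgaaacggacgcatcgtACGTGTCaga
LTI30 promoter (chr3:18940393-18940642, plus strand): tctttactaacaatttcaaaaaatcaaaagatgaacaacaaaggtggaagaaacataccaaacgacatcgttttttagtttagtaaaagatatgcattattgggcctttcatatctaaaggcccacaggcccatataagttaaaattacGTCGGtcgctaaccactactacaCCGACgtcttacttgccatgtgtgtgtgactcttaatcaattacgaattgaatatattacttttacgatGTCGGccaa
RD29A promoter (chr5:21240467-21240716, plus strand): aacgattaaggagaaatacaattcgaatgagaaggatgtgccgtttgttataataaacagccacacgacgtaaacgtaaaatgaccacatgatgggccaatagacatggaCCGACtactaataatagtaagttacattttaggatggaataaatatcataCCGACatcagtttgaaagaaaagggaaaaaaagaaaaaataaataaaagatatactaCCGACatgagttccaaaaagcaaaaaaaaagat
RD29B carries 3 ABRE and 1 DRE and PP2CA the same numbers, while RD29A and LTI30 carry 3 DRE each. The LTI30 window overlaps the annotated neighbour AT3G50960.

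**Figure D4:**
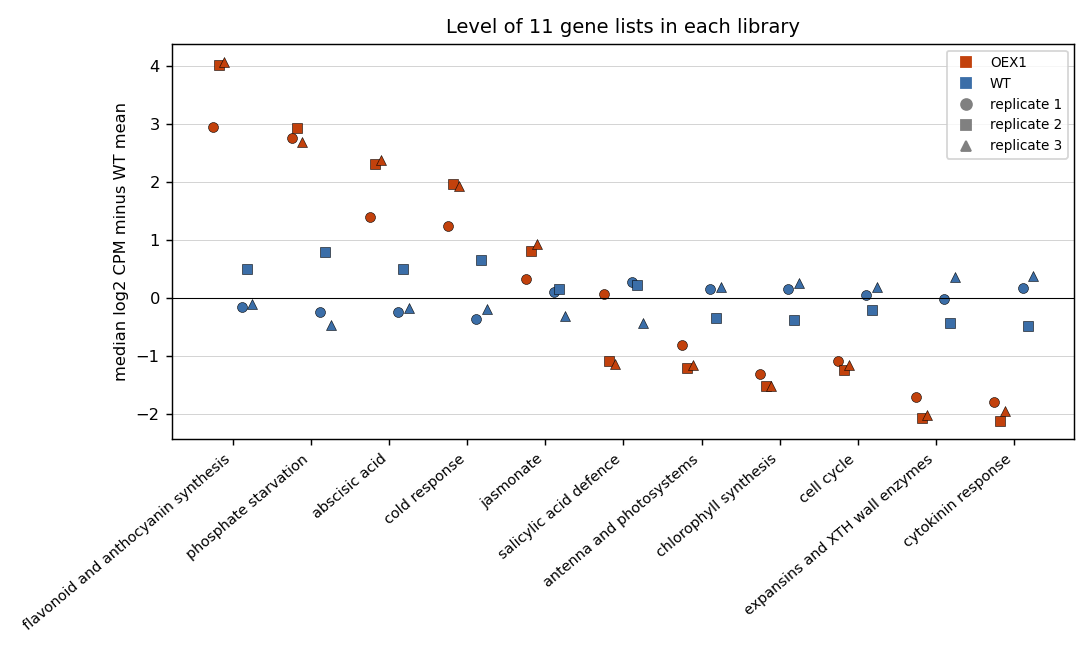
Median over the tested members of log2 CPM minus the WT mean (y axis) for 11 gene lists (x axis), by library. Points are libraries marked by replicate. OEX1 replicate 1 lies between WT and the other OEX1 libraries for abscisic acid (1.38 against 2.31 and 2.38) but not for phosphate starvation.

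Flavonoid and anthocyanin genes had the highest median of the lists, 3.63, with 14 of 18 higher and 1 lower, or 2 lower without OEX1 replicate 1 or WT replicate 3. Of its members F3H was listed at 0 counts in all 6 libraries. MYB75, the main activator of anthocyanin synthesis, stood at 68.9, 169.9 and 160.4 CPM in OEX1, against 5.59, 7.32 and 2.52 CPM in WT (log2 fold change 4.70 ± 0.46, edgeR adjusted p = 0.000279). MYB90 held 9.62, 31.8 and 33.6 CPM in OEX1, against 0.0513, 0.211 and 0.197 CPM in WT (log2 fold change 7.30 ± 0.78, edgeR adjusted p = 0.000374); MYB75 and MYB90 are close copies, and reads shared between them were not separated here. DFR, the first enzyme of the anthocyanin branch, held 54.1, 170.4 and 168 CPM in OEX1, against 0.41, 4.16 and 0.0986 CPM in WT (log2 fold change 6.41 ± 0.93, edgeR adjusted p = 0.00107). UGT79B1 and UGT75C1, which add sugars to anthocyanins, rose by 6.89 ± 0.67 and 3.91 ± 0.41 (edgeR adjusted p = 0.0003 and 0.000327). In each, replicate 1 was the lowest OEX1 library and stood above every WT library. MYBL2, a repressor of the pathway, fell to 62.0, 54.6 and 56.8 CPM in OEX1, against 116, 126 and 124 CPM in WT (log2 fold change -1.08 ± 0.12, edgeR adjusted p = 0.000266).

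Jasmonate genes were higher in 14 of 25 cases and lower in 3 (median 0.66), but with replicates 2 and 3 summed only 5 were called higher and 1 lower, and 5 or 6 higher without OEX1 replicate 2 or 3 or WT replicate 3. MYC2 was listed at 0 counts in all 6 libraries. VSP2, a vegetative storage protein induced by jasmonate, stood at 266, 729 and 748 CPM in OEX1, against 46.3, 23.2 and 15.3 CPM in WT (log2 fold change 4.36 ± 0.61, edgeR adjusted p = 0.00089). JAZ9, a repressor of the pathway, held 292, 574 and 582 CPM in OEX1, against 161, 151 and 105.1 CPM in WT (log2 fold change 1.80 ± 0.30, edgeR adjusted p = 0.00135). The defensin gene PDF1.2B went the other way, with 3.77, 0.331 and 0.707 CPM in OEX1, against 8.26, 91.8 and 20.8 CPM in WT (log2 fold change -4.65 ± 1.07, edgeR adjusted p = 0.00841); WT itself was uneven, and the call was lost with replicates 2 and 3 summed (adjusted p = 0.056).

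The count of salicylic acid defence genes depended on OEX1 replicate 1. Of 19 tested, 4 fell and none rose (median -0.73), a share of 21.1% beside 22.3% over all genes. Without OEX1 replicate 1, 13 fell, without OEX1 replicate 2 or 3 or WT replicate 1, 1 or 2 fell, and with replicates 2 and 3 summed edgeR called none, with 4 at an unadjusted p under 0.05. DESeq2 and limma-voom called 5 each with all libraries. EDS1, a hub of immune signalling, held 33.1, 20.4 and 17.64 CPM in OEX1, against 53.6, 46.0 and 35.0 CPM in WT (log2 fold change -0.92 ± 0.23, edgeR adjusted p = 0.0102; 0.0601 with replicates 2 and 3 summed). ICS1, which makes the precursor of salicylic acid, held 25.3, 14.0 and 14.4 CPM in OEX1, against 29.4, 33.0 and 27.4 CPM in WT (log2 fold change -0.74 ± 0.22, edgeR adjusted p = 0.0228; 0.108 with replicates 2 and 3 summed, and also lost without OEX1 replicate 2 or 3 or WT replicate 1 or 2). In both genes replicate 1 was the highest OEX1 library and lay below the WT range.

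Genes of the rapid response to touch and wounding fell in 6 of 12 cases with none higher (median -1.32). Without WT replicate 2 the median was -0.77 and 1 gene rose. TCH3, a calmodulin-like protein, stood at 43.1, 20.6 and 19.9 CPM in OEX1, against 162, 118 and 107 CPM in WT (log2 fold change -2.21 ± 0.39, edgeR adjusted p = 0.00213), and TCH2, of the same kind, fell by 1.47 on the log2 scale (edgeR adjusted p = 0.00129). Of the aliphatic glucosinolate branch, 9 of 16 rose and 1 fell (median 0.36), but 4 and 0 with replicates 2 and 3 summed or without OEX1 replicate 2 or 3, and 3 and 0 when all 18 libraries shared 1 fit. MAM3, which elongates methionine side chains, held 93.8, 76.3 and 70.5 CPM in OEX1, against 44.3, 47.4 and 32.0 CPM in WT (log2 fold change 0.96 ± 0.18, edgeR adjusted p = 0.00195). In the indolic branch 3 of 10 rose and 3 fell (30% each, beside 21.5% and 22.3% over all genes). Only 1 rose with replicates 2 and 3 summed or with any 1 library but OEX1 replicate 1 left out. CYP81F2, which modifies indolic glucosinolates in defence, fell to 1.84, 0.735 and 0.541 CPM in OEX1, against 17.9, 13.6 and 13.2 CPM in WT (log2 fold change -3.83 ± 0.39, edgeR adjusted p = 0.000242).

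Of 27 clock genes, 14 were called higher and 1 lower (median 0.34), with 9 higher when replicates 2 and 3 were summed. CCA1, a morning repressor, stood at 137, 182 and 186 CPM in OEX1, against 51.5, 78.5 and 53.8 CPM in WT (log2 fold change 1.46 ± 0.19, edgeR adjusted p = 0.000414). RVE8, a morning activator, held 32.4, 37.5 and 38.9 CPM in OEX1, against 14.6, 17.3 and 10.4 CPM in WT (log2 fold change 1.37 ± 0.17, edgeR adjusted p = 0.000362). CHE, a repressor of CCA1, was the gene that fell, with 29.99, 22.6 and 25.5 CPM in OEX1, against 113, 74.7 and 137 CPM in WT (log2 fold change -2.06 ± 0.20, edgeR adjusted p = 0.000215). The labels give no time of harvest. Among 11 light regulators 3 rose (27.3%, near the 21.5% over all genes) and none fell (1 fell without OEX1 replicate 1). PIF3, a factor that acts with phytochrome, rose by 2.23 ± 0.27 (edgeR adjusted p = 0.00043).

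Genes of chlorophyll breakdown and senescence rose in 5 of 10 cases with none lower (median 0.71). Without WT replicate 1 or WT replicate 3, 3 rose, and without WT replicate 2 the median was 1.29. PAO, PPH and NYE1, which break chlorophyll down, rose by 1.24 ± 0.16, 1.35 ± 0.20 and 1.18 ± 0.18 (edgeR adjusted p = 0.000472, 0.000671 and 0.000733). PAO stood at 228, 283 and 281 CPM in OEX1, against 115, 126 and 93.1 CPM in WT, with no overlap. Vacuolar pumps and tonoplast aquaporins had 6 of 11 lower and none higher, or 1 higher without OEX1 replicate 1 or WT replicate 2. TIP2;1, a water channel of the vacuole, stood at 23.4, 27.7 and 27.4 CPM in OEX1, against 193, 76.4 and 314 CPM in WT (log2 fold change -2.89 ± 0.48, edgeR adjusted p = 0.00183), and TIP1;2 held 221, 189 and 189.8 CPM in OEX1, against 733, 453 and 837 CPM in WT (log2 fold change -1.75 ± 0.24, edgeR adjusted p = 0.000586). Of 9 superoxide and peroxide enzymes 3 fell and 1 rose (33.3% and 11.1%, beside 22.3% and 21.5% over all genes). With replicates 2 and 3 summed 2 fell and none rose, and without OEX1 replicate 1, 2 fell and 2 rose. CSD2, the chloroplast copper/zinc superoxide dismutase, fell to 11.3, 10.9 and 9.11 CPM in OEX1, against 119, 45.2 and 138 CPM in WT (log2 fold change -3.27 ± 0.38, edgeR adjusted p = 0.000435), and the cytosolic CSD1 changed by -1.75 ± 0.30 (edgeR adjusted p = 0.00161). Of 9 genes of low oxygen response 2 were called higher and 2 lower (1 lower with replicates 2 and 3 summed or without OEX1 replicate 2 or 3 or WT replicate 1 or 3), shares close to those over all genes.

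Markers of other cell types gave the following values, and their part in the results was not tested. Of 5 phloem companion cell markers 3 rose and none fell (median 0.52), NHL26 and AHA3 by 0.93 ± 0.12 and 0.64 ± 0.10 beside SUC2 (edgeR adjusted p = 0.000494 and 0.000893). The 5 markers took 0.0926% to 0.0979% of counts in OEX1 and 0.0513% to 0.0631% in WT. Of 8 guard cell markers 2 rose and 3 fell (25% and 37.5%, beside 21.5% and 22.3% over all genes). Log2 fold changes were 0.78 ± 0.14 for the potassium channel KAT1 and -1.01 ± 0.19 for the factor MYB60 (edgeR adjusted p = 0.00158 and 0.00212). With replicates 2 and 3 summed or without OEX1 replicate 2, 1 guard cell marker rose and 2 fell. The guard cell list took 0.106% to 0.151% of counts in OEX1 and 0.24% to 0.279% in WT, and most of these counts were from 1 gene, the myrosinase TGG1, with 1391, 958 and 977 CPM in OEX1, against 2737, 2515 and 3215 CPM in WT (log2 fold change -1.35 ± 0.17, edgeR adjusted p = 0.000403). Of 4 epidermis markers tested 1 rose and 1 fell (25% each, near the shares over all genes). None rose with replicates 2 and 3 summed or without OEX1 replicate 2. The epidermis list took 0.0822% to 0.0913% of counts in OEX1 and 0.0575% to 0.067% in WT. None of 4 seed storage and 4 root markers had enough counts to be tested, and the 4 seed storage genes were at 0 counts in OEX1 and WT. Of the flower markers only AG was tested, and it was not called (log2 fold change -0.42 ± 0.54, edgeR adjusted p = 0.553).

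Few genes passed the test between OEX1 and OEX2 leaves. Of 18703 genes 4 were higher and 6 lower in OEX1 than in OEX2 (0.0214% and 0.0321% of those tested, 0.0535% in all), and 2738 had an unadjusted edgeR p under 0.05. AT5G35970, NADK2, NIP6;1 and the non-coding AT3G06355 were higher. AT5G57120, AT4G13577, ARR7, ARR6, the non-coding AT3G29644 and FLS1 were lower. ARR6 stood at 1.49, 1.62 and 1.21 CPM in OEX1, against 6.00, 6.11 and 7.21 CPM in OEX2 (for OEX1 minus OEX2, log2 fold change -2.16 ± 0.29, edgeR adjusted p = 0.0461), and ARR7 at 4.55, 4.26 and 4.62 CPM in OEX1, against 14.2, 14.0 and 15.1 CPM in OEX2 (log2 fold change -1.69 ± 0.18, edgeR adjusted p = 0.0294). FLS1, which makes flavonols, held 2.83, 2.79 and 3.04 CPM in OEX1, against 8.52, 13.2 and 12.9 CPM in OEX2, where OEX1 lay close to WT (5.44, 2.69, 3.85 CPM). NADK2, the chloroplast NAD kinase, held 124, 117 and 115 CPM in OEX1, against 69.8, 70.8 and 70.0 CPM in OEX2 beside 117, 125, 117 CPM in WT. With DESeq2 680 genes were called between the lines. With replicates 2 and 3 of both lines summed edgeR called none, and 1244 had an unadjusted p under 0.05. OEX1 and OEX2 share the WT libraries, so their changes against WT were not compared by overlap; 7867 genes were called in OEX2 against WT (42.1%).

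**Figure D5:**
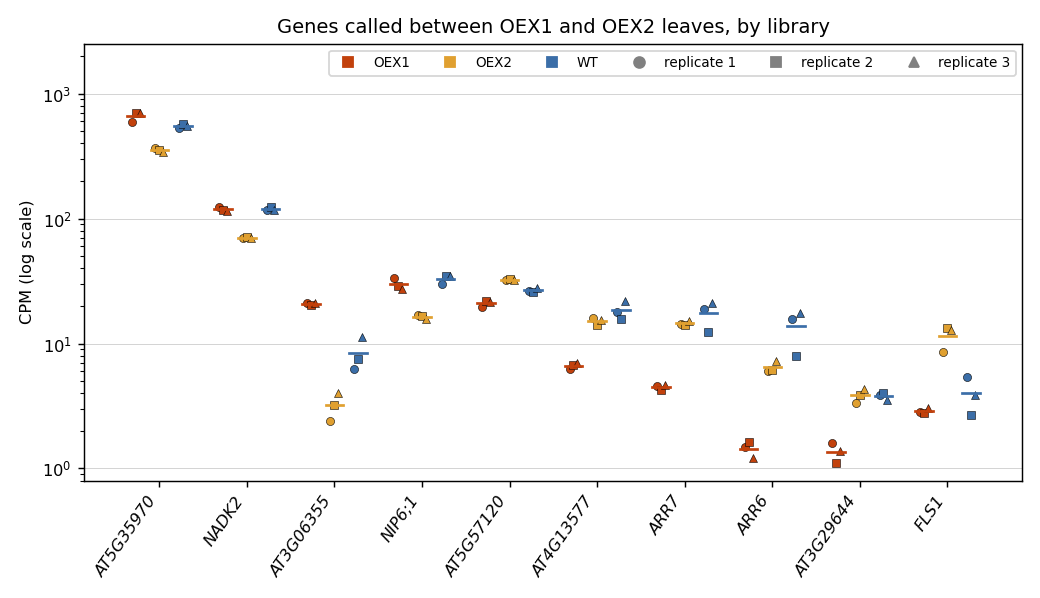
Level in CPM (y axis, log scale) of the 10 genes called between OEX1 and OEX2 (x axis), in each OEX1, OEX2 and WT library. Points are libraries marked by replicate, and bars are group means. OEX1 lies below both OEX2 and WT for ARR6, ARR7, AT4G13577, AT3G29644 and AT5G57120, and near WT but above OEX2 for NADK2 and NIP6;1.

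The fructose discs gave a separate set of libraries on which to read the OEX1 genes. In 1% fructose, set against 1% mannitol, 36.6% of the genes tested in discs were called higher and 29.5% lower. Among the 17848 genes tested in both tissues these shares were 36.2% and 30%. Of 3827 genes higher in OEX1, 1131 were higher (29.6%) and 1348 lower (35.2%) in fructose; these 1131 are 17.5% of the genes higher in fructose. Of 4020 genes lower in OEX1, 1288 were lower (32%) and 1631 higher (40.6%) in fructose, and the 1288 are 24.1% of those lower in fructose. The lists showed both kinds. Antenna genes fell in both (37 of 46 in fructose, median -1.84), APL3 rose in both (4.68 in fructose) and DFR rose in both (8.56). Cell cycle genes (10 of 16 higher, 1 lower in fructose) and ribosome biogenesis genes (13 of 13 higher in fructose, median 2.99) did not share the direction of OEX1. The ribosome list was only slightly lower in OEX1 (median -0.31) and was not lower in OEX2 (median 0.17). Discs incubated overnight and intact leaves differ in handling, so levels were not compared across them.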

How the data were processed

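RNA-seq read counts per gene were deposited by the authors as 1 table of raw, unnormalised counts for 18 libraries in 6 groups of 3. Per the submitters' processing notes, fastp, HISAT2 2.0.5, StringTie 1.3.3 and the TAIR10 build were used; the counter and whether it used strand are not stated there or in the labels, so overlapping and antisense genes cannot be told apart. Columns were matched to samples by name.

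The 9 leaf libraries (OEX1, OEX2 and WT) were fitted together with edgeR 4.0.16 in R 4.3.3: filterByExpr, TMM scaling, robust quasi-likelihood fit with 6 residual degrees of freedom, 1 mean per group and no other term. P-values were adjusted by Benjamini-Hochberg over all 18703 genes, with a threshold of 0.05. The standard error of a log2 fold change is its size divided by the square root of the F statistic. The fructose and mannitol discs were tested in a separate fit of the disc libraries, which also held the glucose discs. Gene symbols and positions came from RefSeq on TAIR10.1, which matched 32548 of 32833 IDs. Promoter letters were read from the same assembly, 250 bases before the annotated start.

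The 40 gene lists, 6 of them cell type markers (628 loci), were written from textbook knowledge and, like the members and tests, chosen with earlier results of these data known. Named genes were ERDL4 and 14 other sugar genes, and the ERD6-like genes of the vacuolar carrier list. Added were the 12 called genes with the highest and the 12 with the lowest fold (symbol known, mean of 5 CPM or more, groups apart). Each list gave the called genes of smallest p (4 at most) and those moving against most of the list (2 at most). The 5 higher and 5 lower genes with the largest difference in CPM were also named. Genes described for other reasons are said to be chosen after values were seen, or stand among the genes called between OEX1 and OEX2. Alternatives were other scalings and filters, DESeq2 1.42.0, limma-voom (limma 3.58.1), other sets of libraries, a term for the replicate number, and leaving out each library.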

Additional observations from a re-analysis of the deposited data

Results flagged for a closer look

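The 10 genes called between OEX1 and OEX2 are those whose change against WT differed between the lines, as tested by the contrast of OEX1 minus OEX2 in edgeR over all 18703 genes. The log2 difference of OEX1 minus OEX2 was 2.69 for AT3G06355, 0.9 for AT5G35970, 0.87 for NIP6;1 and 0.76 for NADK2. It was -0.62 for AT5G57120, -1.18 for AT4G13577, -1.5 for AT3G29644, -1.69 for ARR7, -2 for FLS1 and -2.16 for ARR6. In each gene all 3 OEX1 libraries lay on the same side of all 3 OEX2 libraries. No gene stayed called when replicates 2 and 3 of both lines were summed.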

How the results depend on the processing

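ERDL4 was called in every alternative run, with log2 fold changes of 1.39 to 1.68. Against 4018 higher and 4178 lower genes, scaling to library size only called 6128 higher and 2796 lower, moving the share of higher calls from 49% to 68.7%. With replicates 2 and 3 of each line summed, 2485 were higher and 2625 lower, and 61.7% of the calls were kept. A threshold of 0.01 gave 2455 and 2598, and adding a log2 change of at least 1 gave 1440 and 1803. Leaving out 1 library gave 2834 to 4533 higher and 3021 to 4510 lower. The lowest counts came without OEX1 replicate 2, and 2883 and 3046 without replicate 3. No called gene changed sign in any alternative run. VGT1, not called, moved to 0.04 with scaling to library size only.

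Between OEX1 and OEX2, 10 genes became 25 without a filter on low counts, 680 with DESeq2, 164 with all 18 libraries in 1 fit and 0 with replicates 2 and 3 summed (edgeR, 1244 at an unadjusted p under 0.05). Leaving out 1 library gave 0 to 171, with 171 without OEX2 replicate 1, 30 without OEX1 replicate 1, 2 without OEX2 replicate 3, 1 without OEX1 replicate 2, and 0 without OEX1 replicate 3 (2188 at an unadjusted edgeR p under 0.05) or OEX2 replicate 2 (1832). The OEX2 omissions were chosen after seeing the data. The causes of these changes were not tested.

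Of 195 named genes besides ERDL4, 192 were called. The call was lost for 24 with the replicates summed, 17 without OEX1 replicate 2, 15 without OEX1 replicate 3, 14 with all 18 libraries, 12 without WT replicate 1 and 12 with library size only. The labels do not say whether equal numbers pair the samples. Same-numbered OEX1 and WT libraries had correlations of deviations of 0.137, 0.039 and 0.066, and differently numbered ones -0.116 to 0.057. These values do not settle it, so the main fit had no replicate term. With a replicate block 3975 were higher and 4207 lower, 1 gene was called between OEX1 and OEX2, 3 named genes lost their call, and fructose against mannitol gave 6542 higher and 5237 lower, against 6869 and 5546. Each alternative for fructose against mannitol stayed within 1.5 times of these counts.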
